A study of Mus musculus with 8 samples.

Results

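The proteasome genes of mouse lung were described in 8 mice. Members were the protein-coding genes whose symbol begins with Psm, a letter from a to g and a digit, with the immunoproteasome genes Psmb8, Psmb9 and Psmb10 left out. The rule found 48 genes among the 55416 gene identifiers of the count files, of which 21627 were protein-coding. It took in 8 genes of the alpha ring and 8 of the beta ring of the 20S core, 6 ATPases and 11 other subunits of the 19S particle, 3 chaperones of 19S assembly, 4 chaperones of 20S assembly and 6 genes of activators and an inhibitor. The remaining 2, Psmc3ip and Psme3ip1, are named as interactors of a subunit and are not subunits themselves. The label of constitutive subunits therefore holds for most members, but not for the interactors, the chaperones, the interferon-inducible activator genes or the tissue-restricted Psma8 and Psmb11.

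Lung RNA was sequenced after endotoxin shock, to ask how YW3-56, an inhibitor of protein arginine deiminases, alters the response to bacterial lipopolysaccharide (LPS). All mice were female C57BL/6J animals of 6 to 8 weeks, with no genetic change, and 1 side of the lung was taken 24 h after LPS. The 3 control mice, numbered 1, 2 and 4, received DMSO and then saline 0.5 h later. The 3 LPS mice, numbered 1, 6 and 7, received 35 mg/kg LPS in saline. They are described as given LPS only, and no DMSO is mentioned for them, so they may differ from the other groups in the solvent too. The 2 dual-treated mice, numbered 2 and 5, received 10 mg/kg YW3-56 in DMSO 0.5 h before 35 mg/kg LPS. No group received YW3-56 without LPS, so its own effect on these genes was not measured. Total counts ran from 19061949 to 20908608 per library. Values are given below as CPM, the counts scaled to the size of the library and by TMM factors, in the order of the mouse numbers above.

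The proteasome is the main protease of the cytosol and nucleus, and it degrades proteins that carry chains of ubiquitin. Its 20S core is a stack of alpha and beta rings with the active sites inside, and the 19S particle recognizes, unfolds and feeds in the substrate. In immune responses interferon replaces the catalytic subunits by those of the immunoproteasome, which favours peptides for MHC class I.

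Some libraries held transcripts of other tissues, as marker genes showed. The 11 squamous epithelium genes summed to 11.4, 15.2 and 15.4 CPM in control mice, 1.96, 818 and 2181 in LPS mice and 11.6 and 26.9 in dual-treated mice, and their most abundant gene, Krt13, had 0.293, 0.0938 and 0.184 CPM in control mice, 0.296, 286 and 886 in LPS mice and 0.544 and 0.877 in dual-treated mice. LPS mice 6 and 7 were thus far above the rest, while LPS mouse 1 was not, and Krt16, Sprr3, Crct1 and Krtdap were at 0 in every control library. The 12 skeletal muscle genes summed to 22.9, 53.1 and 31.8 CPM in control mice, 34.3, 636 and 1582 in LPS mice and 15.3 and 15.9 in dual-treated mice, with Acta1 as the most abundant, and Myh2 and Pvalb were at 0 in every control library. Of the tested genes, 9 of 11 squamous and 9 of 10 muscle genes were higher with LPS, by the test used below. Their part in the results was not tested, but results are also given without LPS mice 6 and 7.

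Cell type markers differed between the groups to unlike degrees. Of all tested genes, 32.6% were higher and 33.9% lower with LPS, and 31.7% and 27.4% from LPS to dual treatment. In dual-treated against control lungs the shares were 9.13% and 7.02%. The counts of lymphocyte, macrophage and monocyte, and lung markers with LPS were near or below these shares. The 12 neutrophil genes summed to 323, 258 and 179.6 CPM in control mice, 2782, 3652 and 2502 in LPS mice and 2042 and 2477 in dual-treated mice, led by S100a9, and 12 of 12 were higher with LPS than in control lungs, while 3 were higher and 5 lower after the dual treatment than with LPS. The 10 macrophage and monocyte genes, led by Lyz2, summed to 6861, 6178 and 8238 CPM in control mice, 6491, 5598 and 3812 in LPS mice and 7271 and 10170 in dual-treated mice, and 2 were higher and 2 lower with LPS, while 7 of 10 rose from LPS to dual treatment. The 10 lymphocyte genes summed to 108, 109 and 106 CPM in control mice, 117, 143 and 101 in LPS mice and 1368 and 100.1 in dual-treated mice, so that dual-treated mouse 2 stood apart. Most of its sum was Ighm, and Cd79a, Cd79b and Ms4a1 were also highest in this mouse. Of the 10, 1 was higher and 3 lower with LPS, and 3 rose and 2 fell from LPS to dual treatment. In dual-treated against control lungs, 7 of 12 neutrophil, 7 of 10 macrophage and monocyte and 1 of 10 lymphocyte genes were higher. None of these genes was called lower there. Of 10 proliferation genes, led by Pcna, 7 exceeded control with LPS, where 1 was lower, and 8 did after the dual treatment, while 5 rose from LPS to dual treatment. Their sums were 121, 117 and 116 CPM in control mice, 241, 193 and 164 in LPS mice and 314 and 209.6 in dual-treated mice. The lung labels were met by the 10 epithelial and endothelial markers, none of which was at 0 in any library. Their sums were 69829, 71247 and 76576 CPM in control mice, 98233, 79317 and 73087 in LPS mice and 45388 and 58227 in dual-treated mice, with Scgb1a1 as the most abundant and the largest share of the sum. Of these 10 genes, 2 were higher and 3 lower with LPS, and 1 was higher and 2 lower in dual-treated against LPS lungs. Of 8 cardiac muscle genes, led by Myh6, 1 was lower with LPS, and 6 were lower in dual-treated lungs against LPS and 6 against control, with sums of 434, 1195 and 686 CPM in control mice, 584, 904 and 538 in LPS mice and 256 and 250.5 in dual-treated mice. Of 7 erythroid genes, led by Hbb-bs, 1 was higher with LPS, and 7 were lower in dual-treated lungs against LPS and 5 against control, with sums of 1736, 3916 and 2787 CPM in control mice, 3305, 1894 and 1481 in LPS mice and 428 and 382 in dual-treated mice. None of the neutrophil, macrophage, lymphocyte, lung, cardiac, erythroid or proliferation genes was at 0 in a library, and the part of these cell types in the results was not tested. In whole lung, fewer cells of a type and less RNA per cell cannot be told apart.

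Most proteasome genes were higher in LPS lungs and closer to control in dual-treated lungs. All 48 members together summed to 3118, 3128 and 3139 CPM in control mice, 6619, 6375 and 5381 in LPS mice and 4431 and 3863 in dual-treated mice. The control mice lay very close together, every LPS mouse was above every dual-treated mouse, and every dual-treated mouse was above every control mouse. Against the mean of the control mice, the LPS mice stood at 2.12, 2.04 and 1.72 and the dual-treated mice at 1.42 and 1.24. With library size as the only scaling, these ratios were 1.60, 1.70 and 1.49 in LPS mice and 1.47 and 1.26 in dual-treated mice, so that the order of the groups was kept but their gap was small.

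The filter on low counts was passed by 46 of the 48 members. Each was tested with edgeR (quasi-likelihood), and a member was called at a Benjamini-Hochberg adjusted p under 0.05 over all 18560 tested genes. In LPS against control lungs, 39 of 46 members were higher, where 32.6% of all tested genes were, and 2 were lower, where 33.9% of all tested genes were. The median log2 fold change (log2FC) of the members was 0.97, against -0.01 over all tested genes. In dual-treated against LPS lungs, 34 members were lower, beside 27.4% of all tested genes, and 3 were higher, beside 31.7%. Their median log2FC was -0.55, against 0.06 over all genes. In dual-treated against control lungs, 21 members were higher, beside 9.13% of all tested genes, and none was lower, beside 7.02%. The median was 0.38 there, against 0.00 over all genes (0.004). No member was lower in that comparison at an unadjusted p under 0.05 or by DESeq2 either. The 3 comparisons share their mice, so they are not independent of each other.

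Groups did not overlap for most members. Each LPS mouse was above each control mouse for 40 of 46 members (34.7% of all tested genes) and below each for 3 (37.3%). Each dual-treated mouse was below each LPS mouse for 35 members (32.9% of all genes) and above each for 3 (37.9%). Each dual-treated mouse was above each control mouse for 36 members (26.1% of all genes) and below each for 0 (26.2%). For 29 of 46 members the control, dual-treated and LPS mice formed 3 separate ranges in this order, which held for 8.11% of all tested genes.

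The sizes of the changes differed between the comparisons. The methods of the study combined a criterion on fold size with a p-value, and mention no adjustment of it. Here this criterion was applied to unadjusted p-values of edgeR. With a fold above 2 in either direction and an unadjusted edgeR p-value under 0.05, 23 members were higher with LPS (18.3% of all genes) and 0 lower (21.8%). In dual-treated against LPS lungs 4 were lower by this criterion (14.7% of all genes) and 0 higher (20.6%), and against control 1 was higher (7.04%) and 0 lower (3.43%). The 4 were Psmd11, Psme2, Psme2b and Psmg1, and the 1 was Psmd14.

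Without LPS mice 6 and 7, the counts were 39 higher and 2 lower with LPS, beside 27.1% and 28.4% of all tested genes, and 38 of the 39 members called with all mice were called again. This fit has LPS mouse 1 as its only LPS mouse, and its variation was taken from the other groups. In dual-treated against LPS lungs they were 2 higher and 34 lower, beside 25.9% and 23.2% of all tested genes. With library size only, the median of all genes moved to -0.29 for LPS against control and to 0.38 for dual-treated against LPS lungs. The distance of the members' median from that of all genes was 0.98 with TMM and 0.97 with library size in the former comparison, and -0.61 and -0.60 in the latter. This distance is nearly unchanged by construction, since scaling shifts all genes alike, and so it is no check of the scaling. Library size gave 36 members higher and 4 lower with LPS, and 7 higher and 19 lower in dual-treated against LPS lungs. Against the calls with TMM, 3 of 39 higher calls with LPS were lost (Psmc2, Psmg4 and Psmc3ip), and 15 of 34 lower calls from LPS to dual treatment. No called member changed direction between the scalings, and among members that were not called Psma1, Psmc5 and Psmd10 turned from higher to lower with LPS. Over all tested genes, TMM called 32.6% higher and 33.9% lower with LPS and library size 23.4% and 42.2%. In dual-treated against LPS lungs the same 2 scalings called 31.7% and 42.5% higher and 27.4% and 17.4% lower.

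**Figure D1:**
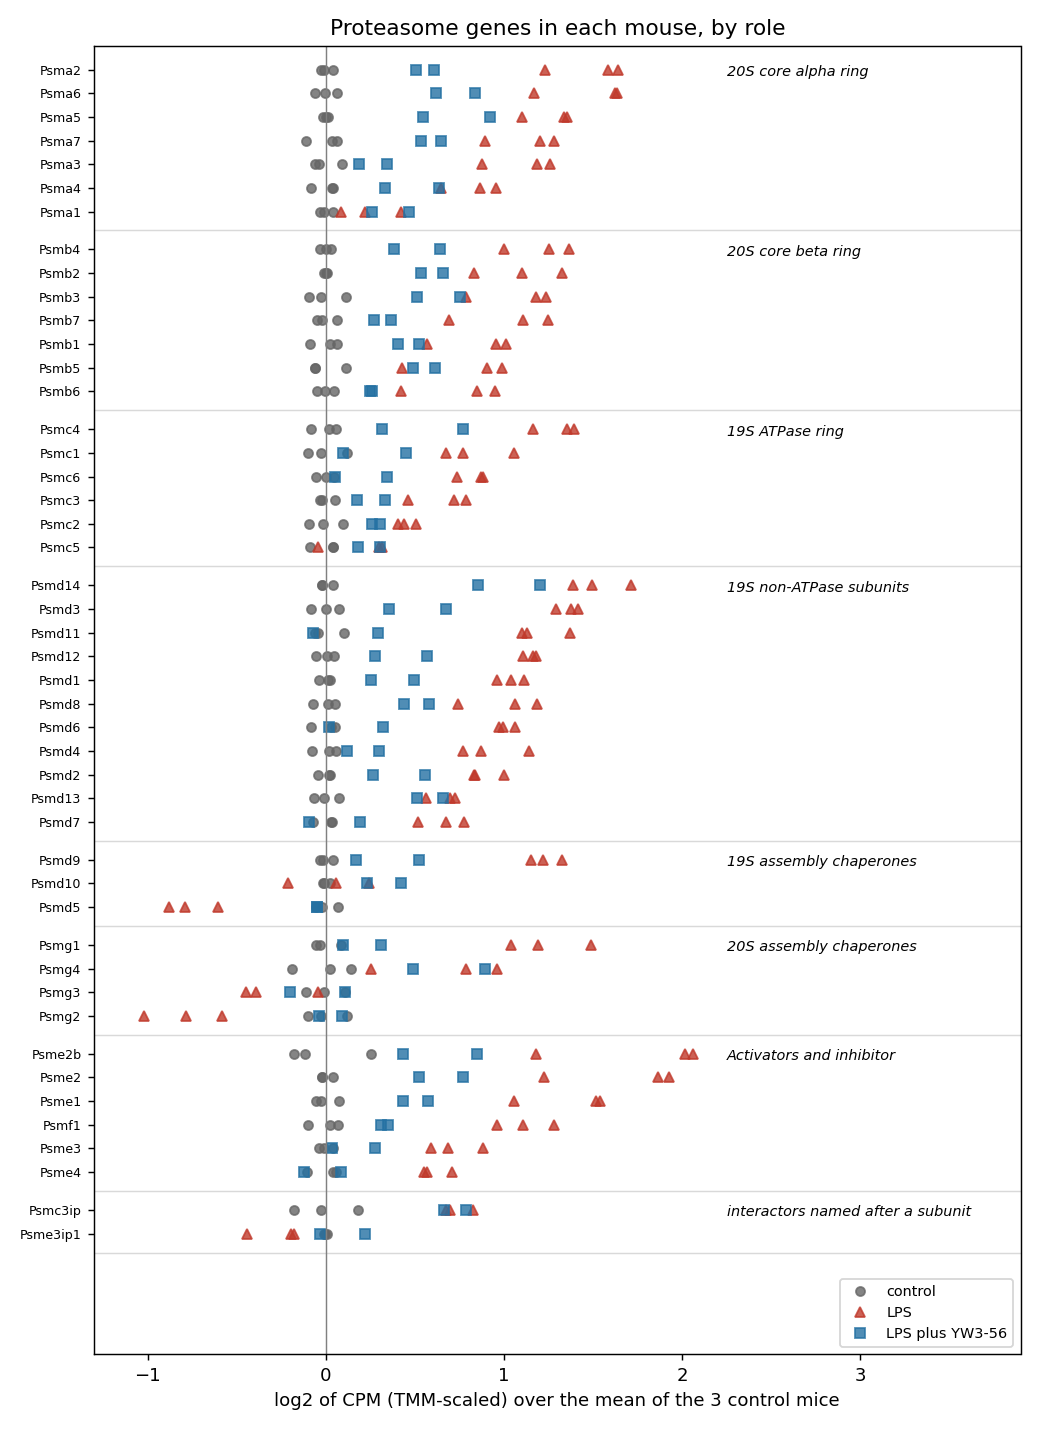
Each line is 1 of the 46 tested proteasome genes and each point 1 mouse, placed by the log2 of its TMM-scaled CPM over the mean of the 3 control mice (circles control, triangles LPS, squares LPS plus YW3-56). Triangles lie to the right of the squares for most genes, while all 3 triangles lie to the left of the squares for Psmd5, Psmg2 and Psme3ip1.

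The alpha ring forms the gate of the core, through which substrates enter. Its 8 genes summed to 528, 534 and 539 CPM in control mice, 1259, 1250 and 986 in LPS mice and 824 and 722 in dual-treated mice, with no overlap between the groups. Of 7 tested alpha genes, 6 were higher with LPS and 6 were lower in dual-treated than in LPS lungs, with a median log2FC of 1.14 and -0.54. The latter 6 became 3 with library size only, beside 17.4% of all tested genes. Beside each class count stand the same shares of all genes, 32.6% higher with LPS and 27.4% lower from LPS to dual treatment. Psma6 had 80.1, 76.5 and 73.7 CPM in control mice, 236, 238 and 173 in LPS mice and 137 and 118 in dual-treated mice. Psma5 had 37.4, 36.9 and 37.7 CPM in control mice, 95.5, 94.3 and 80.1 in LPS mice and 70.6 and 54.6 in dual-treated mice. In both genes LPS mouse 7 was the lowest of its group and dual-treated mouse 5 the lowest of its own, and the groups did not overlap. Log2FC with LPS was 1.49 (SE 0.14) for Psma6 and 1.27 (SE 0.12) for Psma5, with adjusted p-values of 1.2e-05 and 1.21e-05. Psma2 had 85.3, 86.4 and 89.4 CPM in control mice, 272, 261 and 205 in LPS mice and 133 and 124 in dual-treated mice. Its groups were separate as well, with log2FC of 1.496 with LPS and -0.94 from LPS to dual treatment. Psma1 was the exception of the ring, with 82.5, 81.3 and 85.7 CPM in control mice, 97.03, 112 and 88.2 in LPS mice and 115 and 99.8 in dual-treated mice. Its dual-treated mice were as high as its LPS mice, and its log2FC of 0.25 with LPS did not pass the test (adjusted p = 0.0633) and was below 0 with library size only, while it passed with RLE factors and without LPS mouse 7. With library size only, Psma1 was called higher in dual-treated lungs against LPS (0.45). Psma8, an alpha subunit of the testis, had 0.635, 0.141 and 0.2297 CPM in control mice, 0.0593, 0.288 and 0 in LPS mice and 0.272 and 0.439 in dual-treated mice. All mice were near 0 and it was not tested. The values of Psma5 are uncertain, since the pseudogene Psma5-ps matches its transcript over 98.6% of 952 bases.

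The beta ring holds the active sites. Its 8 genes summed to 589, 599 and 605 CPM in control mice, 1328, 1256 and 969 in LPS mice and 881 and 792 in dual-treated mice, again with every LPS mouse above every dual-treated mouse. All 7 tested beta genes were higher with LPS, with log2FC from 0.76 to 1.22, and 6 were lower in dual-treated than in LPS lungs. The 6 became 3 without dual-treated mouse 5 and 2 with library size only, beside 20.7% and 17.4% of all tested genes. The chymotrypsin-like subunit Psmb5 had 77.2, 68.6 and 68.6 CPM in control mice, 142, 134 and 96.3 in LPS mice and 109 and 100.3 in dual-treated mice. The caspase-like subunit Psmb6 had 103, 107 and 110.5 CPM in control mice, 206, 193 and 143 in LPS mice and 128 and 127 in dual-treated mice. The trypsin-like subunit Psmb7 had 43.3, 45.95 and 42.5 CPM in control mice, 104, 94.6 and 70.9 in LPS mice and 56.5 and 52.99 in dual-treated mice. LPS mouse 7 was the lowest LPS mouse in all 3 catalytic genes, and in Psmb5 it was below both dual-treated mice, so that those groups overlapped. Log2FC with LPS was 0.80 (SE 0.14), 0.76 (SE 0.13) and 1.03 (SE 0.13) in the same order. From LPS to dual treatment it was -0.51 (adjusted p = 0.0151) for Psmb6, a call lost without dual-treated mouse 5 and with library size only (-0.17). It was -0.72 (adjusted p = 0.00289) for Psmb7 and -0.24 (adjusted p = 0.212) for Psmb5, which did not pass the test and was above 0 with library size only. Without LPS mouse 7 the value of Psmb5 was -0.41 and passed. Psmb7 shares 46.8% of its exon bases with Nek6, and without a stated strand setting their reads could not be told apart. Psmb4, which has no active site, had 122, 119.6 and 117 CPM in control mice, 308, 285 and 239 in LPS mice and 186 and 156 in dual-treated mice. Its groups were separate, and its log2FC of 1.22 with LPS was the highest of the ring. Psmb11, the thymus subunit, had 0, 0.0469 and 0 CPM in control mice, 0.415, 0.231 and 0.167 in LPS mice and 0.272 and 0 in dual-treated mice. All mice were near 0 and it was not tested.

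The ATPases of the 19S particle unfold the substrate and open the gate. Their 6 genes summed to 556, 559 and 539.7 CPM in control mice, 949, 963 and 815 in LPS mice and 733 and 623 in dual-treated mice, and the groups did not overlap. Of the 6, 5 were higher with LPS and 4 were lower in dual-treated than in LPS lungs. The 4 became 2 without dual-treated mouse 5 and 2 with library size only, beside 20.7% and 17.4% of all tested genes. Psmc4 had 62.2, 68.5 and 66.6 CPM in control mice, 172, 168 and 148 in LPS mice and 112 and 81.8 in dual-treated mice. Its groups were separate, and its log2FC of 1.31 (adjusted p = 1.85e-05) with LPS was the highest of the ATPases. Psmc2 had the smallest rise among the called members, with 65.6, 70.8 and 62.1 CPM in control mice, 93.9, 89.7 and 87.7 in LPS mice and 81.9 and 79.1 in dual-treated mice. Its LPS mice were close together and above all others, at a log2FC of 0.45 (SE 0.09) that was 0.16 and not called with library size only. The change of -0.17 from LPS to dual treatment did not pass the test and was above 0 with library size only. Psmc5 had 102, 93.02 and 101 CPM in control mice, 123, 121 and 95.9 in LPS mice and 122 and 112 in dual-treated mice, so that LPS mouse 7 lay among the control mice. Its log2FC of 0.20 with LPS did not pass the test (adjusted p = 0.144) and was below 0 with library size only, while without LPS mouse 7 it was 0.32 and passed. With library size only, Psmc5 was called higher in dual-treated lungs against LPS (0.38). Of its exon bases, 39.5% are shared with Smarcd2.

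The other 19S subunits bind and process ubiquitin and form the lid. Their 11 genes summed to 935, 927 and 934 CPM in control mice, 1988, 1844 and 1768 in LPS mice and 1326 and 1117 in dual-treated mice. All 11 were higher with LPS, with log2FC from 0.66 to 1.54, and 10 were lower in dual-treated than in LPS lungs. The 10 became 6 with library size only, beside 17.4% of all tested genes. Psmd14, the deubiquitinase that cuts ubiquitin off the substrate (ENSMUSG00000026914, chromosome 2 of GRCm39, 61542026 to 61631607), had 23.2, 24.1 and 23.2 CPM in control mice, 66.2, 76.97 and 61.5 in LPS mice and 54.2 and 42.5 in dual-treated mice. The 3 groups formed separate ranges, and both dual-treated mice lay well above the control mice. Log2FC was 1.54 (SE 0.12) with LPS (adjusted p = 5.59e-06), -0.50 (SE 0.14) from LPS to dual treatment (adjusted p = 0.0105) and 1.04 (SE 0.13) in dual-treated against control lungs (adjusted p = 0.00103). Without dual-treated mouse 5, the change of Psmd14 from LPS to dual treatment was -0.36 and no longer passed the test, and with library size only it was -0.17 and did not pass either.

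The subunits Psmd2 and Psmd4 bind ubiquitin or the receptors that carry it. Psmd2 had 166, 174 and 174 CPM in control mice, 343, 306 and 306 in LPS mice and 252 and 207 in dual-treated mice. Psmd4 had 135, 123 and 131 CPM in control mice, 285, 237 and 221 in LPS mice and 159 and 141 in dual-treated mice. Both genes had all LPS mice above all dual-treated mice, with log2FC of 0.89 and 0.94 with LPS and of -0.47 and -0.72 from LPS to dual treatment, of which that of Psmd2 was -0.14 and not called with library size only. Psmd1, the largest subunit of the base, had 73.8, 74.3 and 71.1 CPM in control mice, 150.4, 142 and 158 in LPS mice and 103 and 87.3 in dual-treated mice. Psmd12, a lid subunit, had 43.4, 44.6 and 41.7 CPM in control mice, 96.97, 97.97 and 93.3 in LPS mice and 64.2 and 52.5 in dual-treated mice. The 3 groups were separate in both, and log2FC in dual-treated against control lungs was 0.38 (adjusted p = 0.0361) and 0.43 (adjusted p = 0.0222), calls that were lost without any 1 control mouse or without dual-treated mouse 2. Psmd11, which joins the lid to the core, had 58.4, 52.1 and 52.7 CPM in control mice, 141, 119 and 117 in LPS mice and 66.7 and 51.8 in dual-treated mice. Dual-treated mouse 5 was below every control mouse and mouse 2 above every one, and log2FC from LPS to dual treatment was -1.08 (SE 0.14), with an adjusted p of 0.000154. Psmd13 differed from these, with 84.1, 87.6 and 92.7 CPM in control mice, 146, 143 and 130.3 in LPS mice and 139 and 126 in dual-treated mice. Its dual-treated mice overlapped the LPS mice, and the change of -0.08 did not pass the test and was above 0 with library size only. Of its exon bases, 30% are shared with Cox8b.

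The chaperones of 19S assembly, which hold the ATPases until the particle is complete, did not move together. Psmd5 (ENSMUSG00000026869, chromosome 2 of GRCm39, 34739746 to 34764980) had 43.8, 42.7 and 46.6 CPM in control mice, 25.7, 29.1 and 24.1 in LPS mice and 42.8 and 42.9 in dual-treated mice. All 3 LPS mice were below all others, and the dual-treated mice lay at the level of the control mice. Log2FC was -0.75 (SE 0.10) with LPS (adjusted p = 0.00012) and 0.70 (SE 0.11) from LPS to dual treatment (adjusted p = 0.00049). Per 100 counts of 19S genes, Psmd5 had 2.94, 2.87 and 3.16 in control mice, 0.874, 1.04 and 0.935 in LPS mice and 2.08 and 2.46 in dual-treated mice. This ratio within a library needs no scaling, and its groups were separate. Psmd9 had 27.4, 28.6 and 27.1 CPM in control mice, 64.6, 69.5 and 61.6 in LPS mice and 39.9 and 31.1 in dual-treated mice. It moved the other way, by log2FC of 1.24 (adjusted p = 1.03e-05) with LPS and -0.88 (adjusted p = 0.00028) from LPS to dual treatment. Psmd10 had 14.1, 14.4 and 14.01 CPM in control mice, 14.8, 16.7 and 12.2 in LPS mice and 19 and 16.6 in dual-treated mice, and its log2FC of 0.04 with LPS did not pass the test and was below 0 with library size only. Under that scaling it was called higher in dual-treated lungs against LPS (0.62).

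Among the chaperones that build the alpha ring, the partners Psmg1 and Psmg2, which act as a pair, went opposite ways. Psmg1 had 9.73, 8.96 and 8.82 CPM in control mice, 25.7, 18.9 and 20.97 in LPS mice and 11.4 and 9.82 in dual-treated mice. Psmg2 had 11.98, 10.3 and 10.8 CPM in control mice, 5.45, 7.38 and 6.41 in LPS mice and 10.8 and 11.8 in dual-treated mice. The LPS mice were the highest of all for Psmg1 and the lowest of all for Psmg2, without overlap. Log2FC with LPS was 1.25 (adjusted p = 6.88e-05) for Psmg1 and -0.78 (adjusted p = 0.0022) for Psmg2, and from LPS to dual treatment -1.04 (adjusted p = 0.000689) and 0.81 (adjusted p = 0.00383). Psmg2 had 1.07, 0.91 and 0.948 in control mice, 0.211, 0.295 and 0.328 in LPS mice and 0.6302 and 0.777 in dual-treated mice per 100 counts of 20S genes. Psmg4 had 12.9, 10.3 and 11.9 CPM in control mice, 22.8, 20.2 and 14 in LPS mice and 16.5 and 21.8 in dual-treated mice, so that its dual-treated mice lay among the LPS mice. Its log2FC with LPS was 0.70, and 0.40 and not called with library size only. That of 0.01 from LPS to dual treatment did not pass the test and was below 0 with RLE factors, median scaling and DESeq2. Psmg3 had 6.11, 7.13 and 6.57 CPM in control mice, 5.04, 6.404 and 4.85 in LPS mice and 5.76 and 7.11 in dual-treated mice, and its log2FC of -0.28 with LPS did not pass the test but was -0.57 and passed with library size only. Under that scaling it was also called higher in dual-treated lungs against LPS (0.57).

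The activators cap the core in place of the 19S particle, and their 6 genes, with the inhibitor Psmf1, had the highest class median with LPS, 1.26. All 6 were higher with LPS and all 6 lower in dual-treated than in LPS lungs. The latter 6 became 4 with library size only, beside 17.4% of all tested genes, and Psme3 (-0.23) and Psme4 (-0.30) lost the call. Psme1, a subunit of the interferon-inducible activator PA28, had 107, 109 and 117 CPM in control mice, 324, 319 and 232 in LPS mice and 166 and 150.3 in dual-treated mice. Its partner Psme2 had 60.2, 57.9 and 57.7 CPM in control mice, 223, 214 and 137 in LPS mice and 100.2 and 84.4 in dual-treated mice. LPS mouse 7 was well below the other LPS mice in both genes, and still above every dual-treated mouse. Log2FC with LPS was 1.39 (SE 0.14) and 1.71 (SE 0.17), and from LPS to dual treatment -0.88 (SE 0.15) and -1.05 (SE 0.20). Psme2b, an intronless copy of Psme2, had 17.6, 13.6 and 13 CPM in control mice, 61.4, 59.7 and 33.4 in LPS mice and 26.5 and 19.9 in dual-treated mice. Its log2FC of 1.81 (adjusted p = 0.00012) with LPS was the highest of any member and that of -1.15 (adjusted p = 0.00471) from LPS to dual treatment the lowest. The value is uncertain, since its transcript matches that of Psme2 over 96.3% of 837 bases and reads could be split between them. Psme1 shares 39.6% of its exon bases with Emc9 and Psme2 30.8% with Rnf31.

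The nuclear activator Psme3 had 66.8, 63.2 and 64.4 CPM in control mice, 119.6, 104 and 97.8 in LPS mice and 78.5 and 66.4 in dual-treated mice. Psme4, the large single-chain activator, had 67.3, 75.2 and 74.2 CPM in control mice, 107, 106 and 118 in LPS mice and 76.6 and 66.4 in dual-treated mice. Psmf1, the inhibitor, had 21.2, 23.2 and 23.9 CPM in control mice, 55.4, 49.1 and 44.3 in LPS mice and 29.02 and 28.2 in dual-treated mice. In each of the 3 genes all LPS mice were above all others, and for Psme4 dual-treated mouse 2 was just above and mouse 5 just below the control mice. Log2FC with LPS was 0.73, 0.61 and 1.12, and in dual-treated against control lungs 0.16, -0.01 and 0.33, none of which passed the test. With library size only that of Psme4 was above 0, and that of Psmf1 was 0.37 and passed, as it did with the 2 groups alone.

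The interactors differed from each other. Psme3ip1, which binds the activator Psme3, had 40.1, 40.3 and 40.6 CPM in control mice, 35.3, 35.6 and 29.7 in LPS mice and 39.4 and 46.98 in dual-treated mice. Its LPS mice were below the others, but the log2FC of -0.27 (adjusted p = 0.0517) missed the threshold, which it passed with library size only (-0.56), with the filter of 10 counts in every library and in a fit of the 2 groups alone. The log2FC of 0.36 (adjusted p = 0.0249) from LPS to dual treatment passed the test. That call was lost without LPS mouse 7 or dual-treated mouse 5, with DESeq2 and with the 2 groups alone. Psmc3ip, a factor of meiotic recombination, had 3.08, 3.42 and 3.95 CPM in control mice, 5.57, 5.65 and 6.19 in LPS mice and 5.53 and 6.01 in dual-treated mice. Its LPS and dual-treated mice were above all control mice, with a log2FC of 0.73 (adjusted p = 0.00646) with LPS, which was 0.45 and not called with library size only. It shares 38.1% of its exon bases with Mlx.

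**Figure D2:**
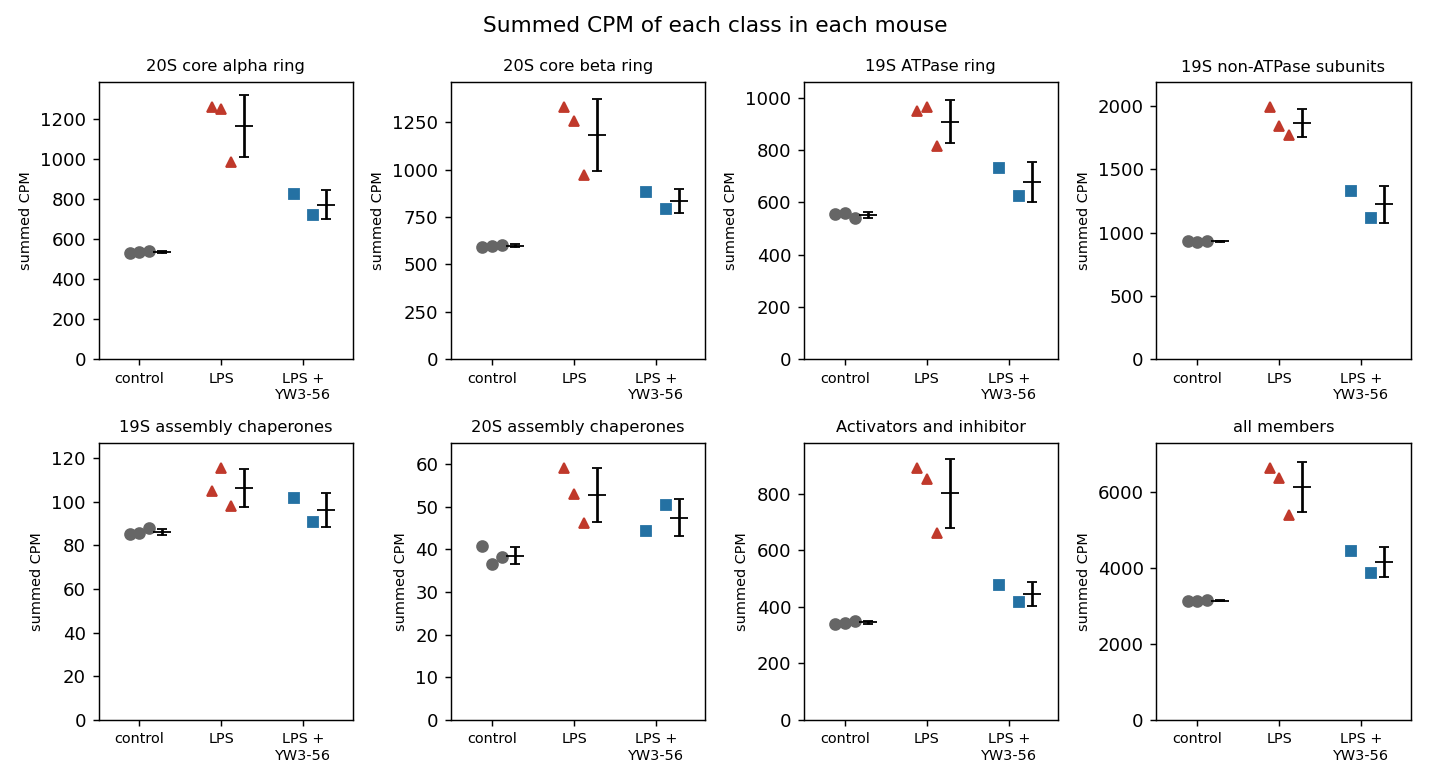
Summed TMM-scaled CPM of the members of each class (vertical axis, from 0), with 1 point per mouse and the mean and SD of each group beside it (3 control, 3 LPS and 2 dual-treated mice). Over all members the LPS mice lie between 5381 and 6619, the dual-treated mice at 4431 and 3863 and the control mice between 3118 and 3139.

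The proportions of the classes were compared by ratios of counts within a library. The ratio of summed 19S to summed 20S counts was 1.33, 1.31 and 1.29 in control mice, 1.14, 1.12 and 1.32 in LPS mice and 1.21 and 1.15 in dual-treated mice, below every control mouse in LPS mice 1 and 6 and in both dual-treated mice, while LPS mouse 7 lay within the range of the control mice. The ratio of beta to alpha ring counts was 1.12, 1.12 and 1.12 in control mice, 1.05, 1.005 and 0.983 in LPS mice and 1.07 and 1.097 in dual-treated mice, lowest in the LPS mice. The ratio of Psme1 and Psme2 to 20S counts was 0.15, 0.147 and 0.153 in control mice, 0.211, 0.213 and 0.189 in LPS mice and 0.156 and 0.155 in dual-treated mice, so the LPS mice were above all others and the dual-treated mice just above the control mice. Within groups, LPS mouse 7 had the lowest value of the LPS mice for 39 of 46 members, against 36.0% of all tested genes, and dual-treated mouse 2 was above mouse 5 for 40 of 46, against 48.0% of all tested genes.

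Levels between genes were compared as CPM per kilobase of the canonical transcript. In control lungs the mean level of the 14 tested core genes ran from 12.4 for Psmb2 to 130.7 for Psmb3, a 10.6-fold range. This range depends on the lengths used, which were 4019 bases for Psmb2 and 774 for Psmb3. In CPM, without division by length, the control means of these genes ran from 37.3 for Psma5 to 119.4 for Psmb4. The assembled core holds its subunits in equal number. Among the 17 subunits of the 19S particle it ran from 9.63 for Psmd14 to 97.2 for Psmd4. Psmd14 was also the lowest of these subunits with LPS, at 27.95, and in dual-treated lungs, at 19.8. The assembly chaperones were lower than most subunits, with a median level in control lungs of 10.1 for those of the 19S particle and 8.45 for those of the core, against 39.9 for the core genes.

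The immunoproteasome genes, which are not members, were set beside the catalytic subunits that they replace. Psmb8 had 47.1, 46 and 45.98 CPM in control mice, 256, 235 and 179 in LPS mice and 90.5 and 83.7 in dual-treated mice. Psmb9 had 42.8, 35.1 and 41.3 CPM in control mice, 94.8, 87.9 and 65.9 in LPS mice and 56.1 and 67.2 in dual-treated mice. Psmb10 had 59.9, 63.3 and 72.8 CPM in control mice, 229, 192 and 145 in LPS mice and 107 and 115 in dual-treated mice. All 3 were higher with LPS, by 2.27, 1.06 and 1.53, and log2FC from LPS to dual treatment was -1.36, -0.43 and -0.76. The call of Psmb9 from LPS to dual treatment was lost with library size only (-0.09) and without LPS mouse 1, LPS mouse 6 or dual-treated mouse 2.

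Ratios of counts within a library need no scaling. The log2 ratio of Psmb8 to Psmb5 was -0.71, -0.58 and -0.58 in control mice, 0.85, 0.81 and 0.90 in LPS mice and -0.27 and -0.26 in dual-treated mice. The LPS mice stood far above the rest, and the dual-treated mice lay between the groups and nearer to the control mice. The difference was 1.47 with LPS and -1.12 from LPS to dual treatment (exact permutation test over mice, two-sided, p = 0.1 and p = 0.2). These are the smallest p-values that 3 against 3 and 3 against 2 mice allow, and adjusted over the 9 tests both were 0.257. The log2 ratio of Psmb9 to Psmb6 was -1.27, -1.60 and -1.42 in control mice, -1.12, -1.13 and -1.12 in LPS mice and -1.19 and -0.92 in dual-treated mice. The log2 ratio of Psmb10 to Psmb7 was 0.47, 0.46 and 0.78 in control mice, 1.13, 1.02 and 1.03 in LPS mice and 0.92 and 1.12 in dual-treated mice. For these 2 pairs the LPS and dual-treated mice overlapped, with differences of 0.07 (exact permutation p = 0.8) and -0.04 (exact permutation p = 0.6), both of which changed sign when 1 dual-treated mouse was left out. Both pairs were higher in LPS than in control mice, by 0.305 and 0.49 (exact permutation p = 0.1 each).

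**Figure D3:**
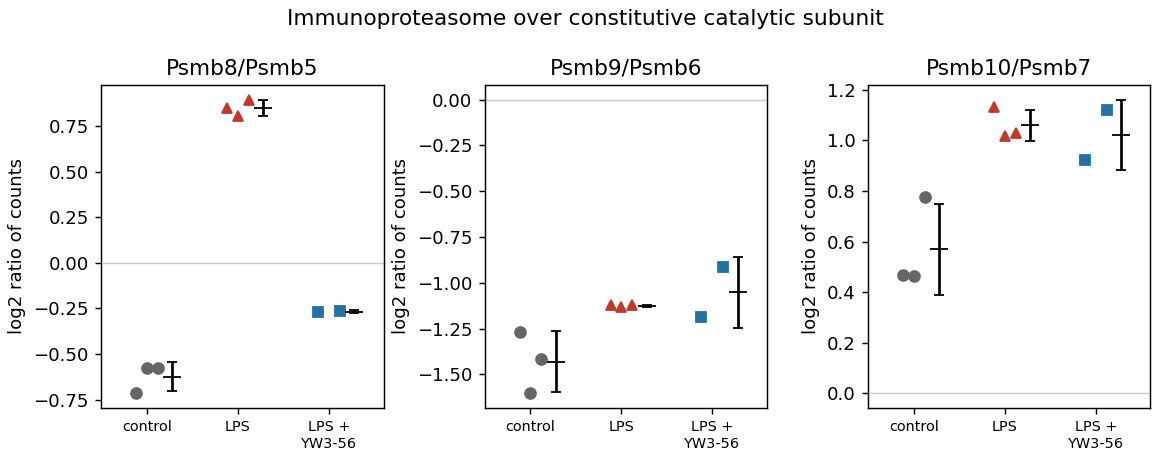
Log2 ratio of the counts of each immunoproteasome gene to its constitutive counterpart (vertical axis), with 1 point per mouse and the mean and SD of each group beside it. The Psmb8 to Psmb5 ratio is above 0 in the 3 LPS mice and below 0 in the control and dual-treated mice.

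With all mice, 21 members exceeded control after the dual treatment. Psmd14, Psma5 and Psma6 had the highest log2FC there, 1.04 (adjusted p = 0.00103), 0.75 (adjusted p = 0.00454) and 0.73 (adjusted p = 0.0102). Of the 39 members that rose with LPS, 21 were also called higher than control after the dual treatment, 34 were called lower than in LPS lungs, and 18 were called both. The 39 were picked by the same LPS and control mice that enter these counts. Such counts over all genes that rose with LPS are not given, so these are a description of the members only. The count of 21 fell whenever 1 mouse of these groups was left out, by an amount that depended on the mouse. It was 4, 5 and 5 without control mouse 1, 2 or 4, while the members' median log2FC stayed at 0.37, 0.39 and 0.35. It was 2 without dual-treated mouse 2 and 17 without dual-treated mouse 5, and these moved the median to 0.24 and 0.46. Of all tested genes, the same fits called 5.90%, 5.28%, 5.30%, 4.06% and 8.67% higher, so that without dual-treated mouse 2 the members, 2 of 47, were near the share of all genes. Psmd14 and Psma5 passed the test in all 5 of these fits. From LPS to dual treatment, 28 of the 37 calls held when any 1 of the 5 LPS and dual-treated mice was left out. All 41 calls of LPS against control held when any 1 of those 6 mice was left out.

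Partners of the proteasome outside the symbol rule were tested as well. Of 13, 9 were higher and 4 lower with LPS, beside 32.6% and 33.9% of all tested genes. In dual-treated against LPS lungs 3 were higher and 7 lower, beside 31.7% and 27.4%. None was called in dual-treated against control lungs, beside 9.13% higher and 7.02% lower of all tested genes. An unadjusted p under 0.05 gave 1 higher and 2 lower there and DESeq2 gave 0. This does not show that they were equal, since both dual-treated mice were above every control mouse for Sem1 and below every one for Ube3a. The core assembly factor Pomp had 70.1, 74.4 and 71.5 CPM in control mice, 154, 158 and 124 in LPS mice and 91.99 and 88.6 in dual-treated mice. The ubiquitin receptor Adrm1 had 86.5, 80.8 and 88.6 CPM in control mice, 170.1, 171 and 155 in LPS mice and 109.8 and 90.4 in dual-treated mice. The small lid subunit Sem1 had 102, 89.9 and 100.3 CPM in control mice, 206, 206 and 122 in LPS mice and 127 and 139.9 in dual-treated mice. Pomp and Adrm1 had all LPS mice above all others, with log2FC of 1.01 and 0.96 with LPS, while in Sem1 LPS mouse 7 lay below both dual-treated mice and log2FC was 0.87.

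The stress-inducible Zfand2a had 39.7, 35.2 and 36.7 CPM in control mice, 149.8, 134 and 118 in LPS mice and 48.3 and 40.7 in dual-treated mice. The thioredoxin-like Txnl1, which binds the 19S particle, had 48.6, 47.5 and 43.9 CPM in control mice, 112, 107 and 104 in LPS mice and 56.3 and 48.8 in dual-treated mice. Both were the highest of the list with LPS and the lowest from LPS to dual treatment, with log2FC of -1.59 and -1.03 in the latter. The ubiquitin ligases Ube3a and Ube3c went the other way. Ube3a had 33.2, 31.7 and 31.9 CPM in control mice, 14.3, 14.02 and 18.2 in LPS mice and 25.6 and 25.8 in dual-treated mice. Ube3c had 36.5, 38.9 and 34.2 CPM in control mice, 21.3, 22.96 and 24.5 in LPS mice and 37.8 and 40.2 in dual-treated mice. In both the LPS mice were below all others, at log2FC of -1.06 and -0.67.

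Transcription of proteasome genes after proteasome stress is known to depend on the factor NRF1, encoded by Nfe2l1, with small Maf proteins as partners. Of 13 tested genes of this list, 9 were higher and 2 lower with LPS, beside 32.6% and 33.9% of all tested genes. In dual-treated against LPS lungs 2 were higher and 9 lower, beside 31.7% and 27.4%. Nfe2l1 had 371, 366 and 357 CPM in control mice, 471, 407 and 394 in LPS mice and 328 and 334 in dual-treated mice. Its LPS mice were above all others, yet the log2FC of 0.22 (adjusted p = 0.087) with LPS did not pass the test except with DESeq2, RLE factors or without LPS mouse 7, and that of -0.35 (adjusted p = 0.0245) from LPS to dual treatment did. The latter call was lost with library size only (-0.02) and without LPS mouse 1 or dual-treated mouse 2. Nfe2l2, which encodes the related factor NRF2, had 204, 210.2 and 209 CPM in control mice, 403, 341 and 321 in LPS mice and 143 and 174 in dual-treated mice. Log2FC was 0.77 with LPS and -1.16 from LPS to dual treatment. Its dual-treated mice were below the control mice, but the log2FC of -0.39 (adjusted p = 0.0803) between them did not pass the test, which it passed with DESeq2, with the 2 groups alone and without dual-treated mouse 5.

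The small Maf genes Maff and Mafk had the highest log2FC of that list with LPS. Maff had 73.1, 60.01 and 64.7 CPM in control mice, 563, 276 and 319 in LPS mice and 102 and 74.6 in dual-treated mice. Mafk had 182, 160.1 and 168 CPM in control mice, 634, 438 and 440.4 in LPS mice and 155 and 139 in dual-treated mice. LPS mouse 1 was the highest of all in both, and log2FC with LPS was 2.55 (adjusted p = 2.34e-05) and 1.57 (adjusted p = 1.91e-05). Nfya, a subunit of the factor that binds CCAAT, had 66.6, 65.1 and 64.8 CPM in control mice, 43.7, 32.6 and 32.1 in LPS mice and 49.1 and 70.6 in dual-treated mice. Ngly1, the enzyme that removes sugars from NRF1, had 32.1, 31.7 and 28.2 CPM in control mice, 18.97, 22.4 and 26.3 in LPS mice and 35.8 and 32.3 in dual-treated mice. Nfya and Ngly1 were lower with LPS, by log2FC of -0.86 and -0.44, and the LPS mice were below all control mice in both. Nfe2l3, a relative of Nfe2l1, was the gene of the list called higher than control in dual-treated lungs, with 3.76, 3.89 and 4.18 CPM in control mice, 7.29, 6.29 and 7.97 in LPS mice and 6.44 and 6.58 in dual-treated mice and a log2FC of 0.72. The call was lost whichever mouse of these groups was left out.

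Of 14 tested ubiquitin genes and shuttle receptors, 9 were higher and 2 lower with LPS, beside 32.6% and 33.9% of all tested genes. In dual-treated against LPS lungs 2 were higher and 9 lower, beside 31.7% and 27.4%. Ubb, which encodes ubiquitin, had 549, 621 and 673 CPM in control mice, 2057, 1687 and 1584 in LPS mice and 823 and 794 in dual-treated mice. LPS mice were above all others, and log2FC was 1.53 (adjusted p = 1.15e-05) with LPS and -1.14 (adjusted p = 0.000252) from LPS to dual treatment. The activating enzyme Uba6 had 12.6, 14.96 and 13.2 CPM in control mice, 4.74, 4.904 and 7.53 in LPS mice and 9.93 and 12.1 in dual-treated mice. The shuttle receptor Ubqln4 had 70.9, 72.2 and 67.9 CPM in control mice, 33.1, 33.9 and 30.9 in LPS mice and 52.4 and 56.01 in dual-treated mice. Both were lower with LPS, by log2FC of -1.24 and -1.11, without overlap with control mice. Ubqln4 and the related Ubqln2 were the 2 genes of the list called lower than control in dual-treated lungs, at -0.38 and -0.41, and Ubqln2 had 38.9, 35.3 and 41.2 CPM in control mice, 45.6, 46.4 and 43.7 in LPS mice and 25.8 and 31.9 in dual-treated mice. The call of Ubqln4 was lost without control mouse 1 or 2 or dual-treated mouse 2, and that of Ubqln2 also without control mouse 4 and with library size only.

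Promoter windows of RefSeq, 300 bases from 250 before to 50 after the start of a gene on GRCm38.p6, were found for 40 of the 48 members, and not for Psma8, Psmb1, Psmb2, Psmb7, Psmc3, Psmd3, Psmd7 and Psmg2. Motifs were searched on both strands. The core of the antioxidant response element, TGACNNNGC, was in a window of 6 of 40 members (15%) and of 14.0% of all genes with a window. CCAAT was in 15 members (37.5%, all genes 41.1%), TATAAA in 3 (7.5%, all genes 15.7%) and GGAA in 40 (100%, all genes 96.5%). The differences from all genes were not tested, and a match is not evidence of binding. The median number of CG pairs was 19 over the windows of members and 7 over all windows.

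Promoters of 4 members are printed, chosen after the motif counts were seen: the catalytic Psmb5 and Psmb6, which hold TGACNNNGC, Psmd14, which holds CCAAT 3 times and had the highest log2FC of the 19S subunits with LPS, and Psmd5, which holds neither and was lower with LPS. Capitals mark TGACNNNGC and CCAAT on either strand. The windows are chr14:54617946-54618245 on the minus strand for Psmb5, chr11:70525107-70525406 on the plus strand for Psmb6, chr2:61711444-61711743 on the plus strand for Psmd14 and chr2:34870913-34871212 on the minus strand for Psmd5.
Psmb5: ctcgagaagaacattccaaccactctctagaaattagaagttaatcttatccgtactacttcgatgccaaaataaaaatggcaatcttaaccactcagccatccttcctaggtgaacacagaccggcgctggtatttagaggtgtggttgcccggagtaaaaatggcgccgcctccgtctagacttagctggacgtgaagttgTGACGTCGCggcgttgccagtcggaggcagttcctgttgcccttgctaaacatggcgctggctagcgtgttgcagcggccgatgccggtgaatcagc
Psmb6: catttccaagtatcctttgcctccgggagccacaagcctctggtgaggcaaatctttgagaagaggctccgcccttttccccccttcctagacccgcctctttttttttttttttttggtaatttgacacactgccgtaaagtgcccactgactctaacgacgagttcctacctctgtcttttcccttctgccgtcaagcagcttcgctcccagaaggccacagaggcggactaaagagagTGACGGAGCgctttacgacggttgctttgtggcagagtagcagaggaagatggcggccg
Psmd14: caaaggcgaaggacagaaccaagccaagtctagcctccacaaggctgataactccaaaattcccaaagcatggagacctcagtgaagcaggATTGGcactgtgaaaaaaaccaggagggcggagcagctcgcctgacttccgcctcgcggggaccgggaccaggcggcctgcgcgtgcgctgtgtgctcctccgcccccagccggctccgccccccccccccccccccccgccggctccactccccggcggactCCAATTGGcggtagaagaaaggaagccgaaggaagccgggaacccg
Psmd5: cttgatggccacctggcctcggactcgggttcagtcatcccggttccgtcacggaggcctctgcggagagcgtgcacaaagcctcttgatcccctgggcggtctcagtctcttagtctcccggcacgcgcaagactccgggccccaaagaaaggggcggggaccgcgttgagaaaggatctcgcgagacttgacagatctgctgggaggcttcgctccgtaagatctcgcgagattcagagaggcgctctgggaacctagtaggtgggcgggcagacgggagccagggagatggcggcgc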

How the data were processed

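Lung RNA-seq of 8 mice was used. The authors trimmed reads with Trim Galore, aligned them to GRCm39 with HISAT2 2.2.1, counted them per gene with featureCounts 2.0.1 and deposited raw counts. The annotation release, the strand setting and the treatment of reads with several matches were not given in the sources used here. Symbols and coordinates came from GENCODE M39, which matched 54749 identifiers. The other 667 held 0.0533% of counts.

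The counts were fitted in R 4.3.3 with edgeR 4.0.16 (TMM, filterByExpr by group, quasi-likelihood test, 1 group factor, 5 residual degrees of freedom). Procedures were tested on simulated data. DESeq2 1.42.0, other scalings, filters, the 2 compared groups alone and leaving out mice were alternatives. The members and lists were chosen with earlier results of these data known. Genes named are members, the lists' 2 highest and 2 lowest called genes per comparison and the genes of a fixed core of that rule. Psma1, Psma2, Psmb4, Psmc4, Psmc5, Psmd9, Psmd10, Psmd13, Psmg1, Psmg3, Psmg4 and Psmc3ip are described further because of their values. The counts of separate groups and the class ratios were also chosen after the values were seen. Levels per kilobase use the length of the Ensembl canonical transcript, where the plan had named the exon length. The permutation p is the doubled one-sided value, so 3 against 2 mice cannot go below 0.2. The plan had stated 0.1 for these too.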

Additional observations from a re-analysis of the deposited data

How the results depend on the processing

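All 41 calls of LPS against control were made again with each of the 6 mice compared left out in turn, and with DESeq2, RLE factors, scaling to the median of all genes, either other filter and the 2 groups alone. With library size only, 36 members were higher and 4 lower, with a median log2FC of 0.68, and in dual-treated against LPS lungs 7 were higher and 19 lower, with a median of -0.22. That scaling moved the median of all genes, as given in the report. With a fold above 2 in either direction and an unadjusted edgeR p-value under 0.05, 23 were higher and 0 lower with LPS, 0 higher and 4 lower in dual-treated against LPS lungs and 1 higher in dual-treated against control lungs. Without LPS mice 6 and 7 the median in dual-treated against LPS lungs was -0.68. The cause of these shifts was not tested.

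Leaving out 1 mouse of the groups compared at a time gave medians from 0.90 to 1.02 with LPS, from -0.71 (-0.715) to -0.47 in dual-treated against LPS lungs and from 0.24 to 0.46 in dual-treated against control lungs. Members higher in the last comparison ran from 2 to 17, where fewer mice were fitted, and a lone mouse of a group, as LPS mouse 1 without mice 6 and 7, was assumed to vary like the other groups. The difference in the log2 ratio of Psmb9 to Psmb6 from LPS to dual treatment ran from -0.063 to 0.209, and that of Psmb10 to Psmb7 from -0.136 to 0.061, so both changed sign. Counts without the 2 interactors, or without Psme2, Psme2b and Psma5, both chosen after seeing the data, stayed within 1.5 times the reported ones. Over named genes, no called direction reversed under the alternatives, 259 values lost a call, 43 gained one and 2554 stayed the same. Of the 259, 96 were lost under the criterion of a fold above 2 and an unadjusted p.

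No paired analysis was possible because each mouse belonged to a single group. Mouse numbers that recur between groups are not described as matched animals. With 2 dual-treated mice, comparisons of that group rest on few libraries, and what limits the calls most was not tested.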
